A study of Mus musculus with 19 samples.

Results

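Mutations read from RNA were compared between the proliferative cells of 2 mouse skin squamous cell carcinomas, SCC1 and SCC2. The members were the entries of the proliferative library of each tumour in the authors' list of nonsynonymous mutations, matched by chromosome, position and alleles, without chromosomes 17 and Y. This gave 420 mutations in SCC1 and 362 in SCC2, or 497 distinct mutations in 440 genes, of 656 sites in the whole list. Both libraries came from C57BL/6 skin tumour allografts grown from 10000 cells injected into the dermis, and from 100000 sorted cells that were high for CD71, the transferrin receptor, and low for a histone H2B-GFP label that division dilutes. No treatment was labelled for either tumour, and the labels name neither a carcinogen nor an engineered allele other than the H2B-GFP label. Each tumour gave 1 proliferative library, so no spread between replicates was known, and a test on their reads compared those libraries, not tumours in general. The quiescent libraries of the same tumours, sorted as CD71 low and label high, served as a measure of how far a second library of 1 tumour lay from the first. They listed 358 mutations in SCC1 and 76 in SCC2 outside the chromosomes left out.

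A read share is the percent of RNA reads over a site that carried the alternative base, given by the authors as a whole percent together with the number of reads. The lowest read share listed was 11% and the lowest number of reads was 10, so a mutation below these values, or in a gene that was not read, was not listed. The median number of reads per mutation was 36 in SCC1 (range 10 to 1212) and 33 in SCC2 (range 10 to 1055). In tumour RNA a read share depends, among other things, on the copies of each allele and on how strongly each is transcribed. It also depends on the fraction of cells that carry the mutation, and these cannot be told apart here. No normal tissue was used here, so inherited variants cannot be told apart from mutations of the tumour. The changes were read from RNA alone, so those present in RNA but not in DNA cannot be told apart either.

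Squamous cell carcinoma arises from keratinocytes of the skin. Ras proteins pass growth factor signals to the MAPK and PI3K pathways, and the change of glutamine to leucine in the Hras switch region, Q61L, keeps the protein in its active, GTP-bound form. In mouse skin tumours raised with the carcinogen DMBA this Hras change is the classic first event, and DMBA is known for changes of A:T to T:A pairs. The transcription factor p53, encoded by Trp53, halts the cycle or kills cells after DNA damage, and its missense mutations in carcinomas cluster in the DNA-binding domain.

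Both tumours listed the same mutations in Hras, Trp53, Crebbp and Ripk4. Hras Q61L, at chr7:141192550 in exon 3 of the mm10 genome build (coding change A182T, counted from 1 at the first coding base), was carried by 62% of 561 reads in SCC1 and by 57% of 405 reads in SCC2. Its exact 95% binomial intervals were 57.9 to 66.1% in SCC1 and 52.1 to 61.9% in SCC2. In quiescent cells it stood at 67% of 360 reads in SCC1 and 62% of 52 in SCC2. Most reads carried Q61L in all 4 libraries. The quiescent intervals were 61.8 to 71.8% in SCC1 and 47 to 74.7% in SCC2. All 4 intervals overlapped, those of SCC1 quiescent and SCC2 proliferative cells only from 61.8 to 61.9%. Overlap does not show that the shares are equal. Trp53 carried a pair of changes in both tumours. R277S, in exon 8 at chr11:69589630 (A831T), stood at 63% of 294 reads in SCC1 and 62% of 189 in SCC2. N128Y, in exon 5 at chr11:69588379 (A382T), stood at 32% of 186 reads in SCC1 and 41% of 113 in SCC2. In each proliferative library the N128Y share lay below the R277S share, with no overlap of their intervals (25.6 to 39.5% against 57.1 to 68.5% in SCC1, 31.6 to 50.4% against 54.6 to 68.9% in SCC2).

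Crebbp encodes a histone acetyltransferase and coactivator, and its T2430S change, in exon 31 at chr16:4084086 (A7288T), stood at 54% of 26 reads in SCC1 and 72% of 18 in SCC2. Ripk4 encodes a kinase needed for keratinocyte differentiation, and S739C, in exon 8 at chr16:97743231 (A2215T), stood at 56% of 50 reads in SCC1 and 71% of 38 in SCC2. All 5 coding changes were A to T. Alternative and other reads were compared by Fisher's exact test, two-sided, with Benjamini-Hochberg adjustment over all shared mutations. Of all shared mutations, 19.3% were called at an adjusted p under 0.05, and none of these 5 was (Fisher exact test, adjusted p = 0.308 for Hras, 1 and 0.367 for Trp53, 0.623 for Crebbp and 0.387 for Ripk4). With few reads at Crebbp and Ripk4, the intervals of the tumours were wide and overlapped (33.4 to 73.4% in SCC1 and 46.5 to 90.3% in SCC2 for Crebbp, 41.3 to 70.0% in SCC1 and 54.1 to 84.6% in SCC2 for Ripk4), so differences of 18 and 15 percentage points were not detectable at this depth.

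**Figure D1:**
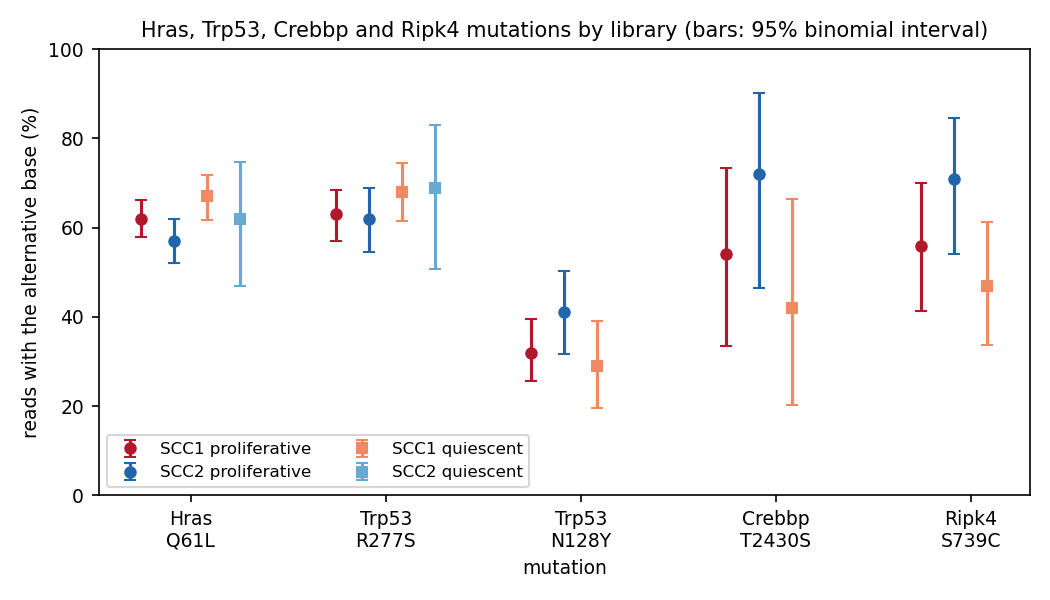
Read share in percent at 5 mutations of Hras, Trp53, Crebbp and Ripk4, with exact 95% binomial intervals as bars, for the proliferative (circles) and quiescent (squares) libraries of SCC1 and SCC2. Hras Q61L and Trp53 R277S lay between 57% and 69% in all 4 libraries, and Trp53 N128Y lay at 32% in SCC1 and 41% in SCC2 proliferative cells. A missing point means that the library did not list the mutation.

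Most mutations of each tumour were in the other, and whether the tumours have a common origin was not tested. Of the mutations, 285 were the same in both, which is 67.9% of the SCC1 list (exact 95% interval 63.2 to 72.3) and 78.7% of the SCC2 list (74.2 to 82.8). In SCC1 135 mutations were private, that is listed in the proliferative library of that tumour and not in that of the other, and in SCC2 77 were. By gene, 267 were mutated in both tumours, or 71.0% of 376 genes in SCC1 and 80.7% of 331 in SCC2, and 109 were mutated in SCC1 only and 64 in SCC2 only. No position held different alleles in the 2 tumours. Of the 267 genes, 264 had an identical mutation, and 3 had different ones. Ep300, the close relative of Crebbp, had A2252D in SCC1 (14% of 42 reads) and R1341W in SCC2 (47% of 15 reads). The spliceosome gene Prpf8 had E1388V in SCC1 (90% of 10 reads). SCC2 had changes at adjacent bases of 1 codon, annotated as Q1296K and Q1296L, each at 71% of 17 reads. If these are the same reads, some carried both changes, and neither annotation gives the amino acid there. In Marcks, an actin-binding substrate of protein kinase C, both tumours had K148fs, by a duplicated base in SCC1 (13% of 23 reads) and by a deleted one in SCC2 (16% of 32 reads).

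The quiescent libraries were set beside these lists. Of the 285 shared mutations, 256 (89.8%) were also listed in SCC1 quiescent cells and 52 (18.2%) in SCC2 quiescent cells, whose list is the short one. Of the 135 mutations private to SCC1, 47 were listed in SCC1 quiescent cells and 3, all in Txndc17, in SCC2 quiescent cells. Of the 77 private to SCC2, 5 were listed in SCC2 quiescent cells, and 11 in SCC1 quiescent cells. Those 11 were therefore in the RNA of both tumours. The reads at an unlisted site are not given, so a mutation missing from a list may not have been read there.

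In-frame insertions and deletions were few, and the bases of the longer ones are given because they add or remove whole codons. These bases are on the plus strand of mm10, and capitals mark the inserted or deleted bases.
Chd4 insertion, both tumours, chr6:125122141: CTGCCA
Zfhx3 deletion, both tumours, chr8:108956101: CAGCAGCAACAGCGGCAACTA
Hsdl2 insertion, SCC1 only, chr4:59610641: AGCAGCCACAGCTGCAGC
Zc3h13 insertion, SCC2 only, chr14:75323594: GATGTGCGA
Chd4 encodes the motor subunit of the NuRD chromatin remodeller, and its insertion of alanine and threonine after P1593 was carried by 35% of 48 reads in SCC1 and 31% of 48 in SCC2. The deletion in Zfhx3, a large transcription factor, was carried by 11% of 28 reads in SCC1 and 33% of 12 in SCC2. The insertion in Hsdl2, a peroxisomal dehydrogenase-like gene, stood at 42% of 12 reads in SCC1, and that in Zc3h13, part of the RNA m6A methylation machinery, at 26% of 27 reads in SCC2. Shared changes of 1 codon were an insertion in the protein C receptor gene Procr (17% of 72 reads in SCC1, 24% of 25 in SCC2) and a deletion in Trmt112 (19% of 31 in SCC1, 19% of 36 in SCC2), whose product activates several methyltransferases. Changes of 3 bases in SCC1 only were an insertion in Serpina3i (31% of 13 reads) and a deletion listed under Gm21949 and Schip1 (15% of 20 reads).

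By effect on the protein, 381 of 420 mutations in SCC1 (90.7%) and 331 of 362 in SCC2 (91.4%) were missense. Stop gains numbered 14 in SCC1 and 11 in SCC2, and 10 of them were the same. Among shared ones with the highest shares was Foxc2 Q471X, in a forkhead transcription factor, at 63% of 56 reads in SCC1 and 59% of 34 in SCC2. Mta1 K627X, in a NuRD subunit, stood at 42% of 119 reads in SCC1 and 56% of 71 in SCC2, and Rcor2 S478X, in a corepressor, at 47% of 17 in SCC1 and 71% of 45 in SCC2. Lpgat1 R374X, in an acyltransferase, had 47% in both tumours (98 reads in SCC1, 77 in SCC2), and Tada2a K426X, in a histone acetyltransferase adaptor, 45% of 38 in SCC1 and 46% of 39 in SCC2. Kctd2 G223X was the one shared stop gain that differed, at 80% of 30 reads in SCC1 and 35% of 29 in SCC2 (Fisher exact test, adjusted p = 0.00559). No whole number of 29 reads gives 35%, so this site was left out of the test without such percents. Start codons were changed to leucine (M1L) in Mrps14, a mitochondrial ribosome gene, at 47% in both tumours, and in H2afy, which encodes the histone variant macroH2A, at 23% of 150 reads in SCC1 and 41% of 85 in SCC2 (Fisher exact test, adjusted p = 0.0340). With the least difference that rounding of the percents allows, H2afy was no longer called (Fisher exact test, adjusted p = 0.0611). In SCC1 only, the ribosome assembly gene Ppan had M1L at 36% of 11 reads. Among private stop gains were Zgrf1 E1571X (40% of 10 reads) in SCC1 and a stop gain in Fam214b (27% of 11 reads) in SCC2.

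Frameshifts were a larger part of the private mutations than of the shared ones. They made up 14 of 135 private mutations in SCC1 (10.4%, exact 95% interval 5.79 to 16.8) and 11 of 77 in SCC2 (14.3%, 7.35 to 24.1), against 4 of 285 shared ones (1.40%, 0.384 to 3.55). All 29 frameshifts were of 1 base, 25 of them 1 base more, and 28 were of an A or T. Their read shares were low, between 11% and 20% for those private to SCC1, between 12% and 28% for those private to SCC2, and between 11% and 24% for the shared ones. The ribosomal protein genes Rpl14 (P140fs, 12% of 971 reads) and Rpl22 (G35fs, 12% of 283 reads) held the deepest of these in SCC2. Rpl14 P140fs, private by the rule, was also listed in SCC1 quiescent cells at 13%, as was Rit1 P123fs, in a Ras-related gene, at 25% there and at 28% of 57 reads in SCC2 proliferative cells.

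Base changes were counted over the substitutions of each tumour. A:T to T:A was the largest of 6 classes, with strands folded, at 186 of 395 substitutions in SCC1 (47.1%, exact 95% interval 42.1 to 52.1) and 168 of 341 in SCC2 (49.3%, 43.8 to 54.7). The 285 mutations in common make these near values, so the private ones are the separate measure. Among private substitutions A:T to T:A was 39 of 118 in SCC1 (33.1%, 24.7 to 42.3) and 21 of 64 in SCC2 (32.8%, 21.6 to 45.7), against 147 of 277 shared ones (53.1%, 47.0 to 59.1). The private intervals of both tumours lay below the shared one. C:G to T:A was 20.3% of private substitutions in SCC1 (13.5 to 28.7) and 17.2% in SCC2 (8.90 to 28.7), against 11.2% of shared ones (7.73 to 15.5). A:T to C:G was 13.6% in SCC1 (7.95 to 21.1) and 18.8% in SCC2 (10.1 to 30.5), against 6.14% of shared ones (3.61 to 9.65). Mutations of 1 library are not replicates of a condition, and no test was made of these shares.

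**Figure D2:**
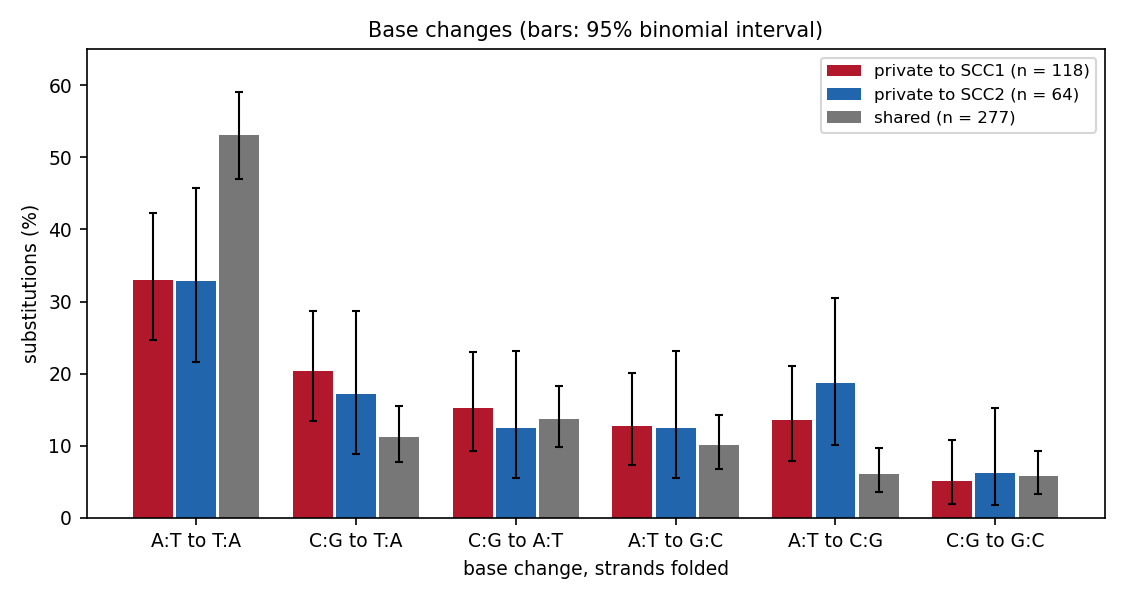
Percent of substitutions in each of 6 base change classes, with strands folded, for mutations private to SCC1, private to SCC2 and shared by both tumours, with exact 95% binomial intervals as bars. A:T to T:A made up 33.1% of those private to SCC1, 32.8% of those private to SCC2 and 53.1% of shared substitutions.

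Private mutations were read less deeply and in a smaller share of reads. The median read share of private mutations was 31% in SCC1 (exact interval of the median 25 to 40) and 30% in SCC2 (24 to 36). For shared mutations it was 47% in SCC1 (45 to 51) and 50% in SCC2 (46 to 53). The median number of reads was 19 for private mutations in SCC1 and 20 in SCC2, against 54 for shared ones in SCC1 and 40 in SCC2. A read share of 20% or less was found for 30.4% of private mutations in SCC1 and 32.5% in SCC2, against 4.91% of shared ones in SCC1 and 5.96% in SCC2. At the other end, 17 private mutations in SCC1 and 5 in SCC2 had 90% or more. Depth at the sites moved with the private class, and its part in the lower shares was not tested.

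**Figure D3:**
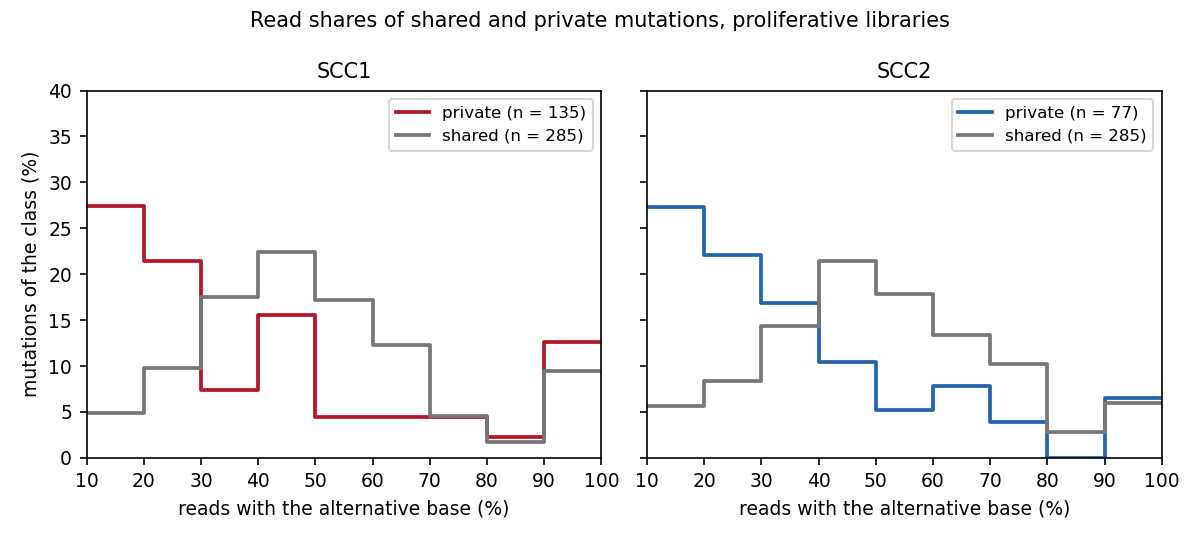
Distribution of read shares, the percent of reads carrying the alternative base, in bins of 10 points, as percent of the mutations of each class, for SCC1 (left) and SCC2 (right) proliferative libraries. In both tumours the private mutations peak in the lowest bin and the shared ones between 40% and 50%.

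Among the private mutations with at least 50 reads, 15 in SCC1 and 14 in SCC2, the highest shares were few. In SCC1 Smarca4 R351Q, in the ATPase of the SWI/SNF remodeller, stood at 41% of 112 reads in quiescent and 41% of 121 reads in proliferative cells. Flna encodes the actin crosslinker filamin A on the X chromosome, and its Q2333R stood at 25% of 268 reads in SCC1 proliferative cells. At another site of this gene, H2517P, SCC2 had 756 reads, so the gene was well read in SCC2 while Q2333R was not listed there. Q2333R also differed between the populations of SCC1, with 55% of 176 reads in the quiescent and 25% of 268 in the proliferative library (Fisher exact test, adjusted p = 5.13e-08). Whether Q2333R is present in DNA was not tested. The others in SCC1 were Mrgbp L187M (22% of 92 reads), Anapc2 S582F (21% of 157), in a subunit of the anaphase-promoting complex, and Polr3k G54A (21% of 100), in a subunit of RNA polymerase III. All 5 were also listed in SCC1 quiescent cells and not in either library of SCC2. In SCC2 they were Cisd1 K32M (35% of 111), in a mitochondrial iron-sulphur protein, Bub1b A933D (35% of 88), in the spindle checkpoint kinase BubR1, Rit1 P123fs, Prmt5 E543D (26% of 51), in an arginine methyltransferase, and Mrpl47 R200Q (23% of 57). Of these 5, Rit1 P123fs was also listed in quiescent cells of both tumours, and the other 4 in neither quiescent library. Desmoplakin, which links desmosomes to keratins, is encoded by Dsp, and its T699M stood at 100% of 27 reads in SCC1 quiescent and 100% of 34 in SCC1 proliferative cells, with no entry in SCC2.

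In genes with several listed changes the reads may be divided among near-identical copies, and the sources used here do not say how the authors handled such reads. At least 3 mutations in a tumour were found in 8 genes. The interferon-inducible gene Ifi202b had 4 changes, all shared, and one of them differed, K364E at 28% of 72 reads in SCC1 and 60% of 37 in SCC2 (Fisher exact test, adjusted p = 0.0138). No whole number of 37 reads gives 60%, so K364E was left out of the test without such percents. Serpina3i had 5 changes, 4732456N10Rik, Gstp2 and Txndc17 had 3, 3 and 4, all in SCC1 only, and Mrps27 had 3, all in SCC2 only. The keratin gene Krt42 and the myosin light chain gene Myl6b had both shared and private changes. Over all genes, 24 mutations in 10 genes of SCC1 and 17 in 8 genes of SCC2 were within 10 bases of another in the same library. Each was annotated singly, and whether the same reads carried both is not given. Txndc17 shows the limit of the private class, since F4S (13% of 296 reads), E5A (12% of 313) and E6K (11% of 339) in SCC1 were near the lowest listed share of 11% and were also listed in SCC2 quiescent cells at 12% to 13%.

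At the 285 shared mutations the read shares of the 2 tumours differed more than those of 2 libraries of 1 tumour. The Fisher exact test called 55 mutations between SCC1 and SCC2, with 28 higher in SCC1 (9.82%) and 27 lower (9.47%). The same test between quiescent and proliferative cells called 3 of 303 mutations in SCC1 (0.99%) and 3 of 57 in SCC2 (5.26%). The median absolute difference was 12 percentage points between tumours, 7 between the libraries of SCC1 and 8 between those of SCC2. Across mutations, which share libraries and are not independent replicates, Pearson's r of the read shares was 0.50 between tumours (n = 285), 0.86 within SCC1 (n = 303) and 0.79 within SCC2 (n = 57). These comparisons share the proliferative libraries. The quiescent lists are shorter, and the part of site number and depth in the counts of calls was not tested. Of the 55, 19 were also listed in both quiescent libraries, and 15 of these had the same direction there.

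Runs of differences lay along chromosomes 10, 18 and 9. These 3 chromosomes held 18 of the 55 calls at 28 of the 285 shared mutations, and they were singled out after the values were seen. On chromosome 10 the median read share of 13 shared mutations was 98% in SCC1 and 71% in SCC2, and 11 of the 13 were at 90% or more in SCC1 and 0 in SCC2. Called there were Ptges3 Q149R, in a cochaperone of Hsp90, at 98% of 242 reads in SCC1 and 71% of 254 in SCC2 (Fisher exact test, adjusted p = 6.36e-17), and Man1a K647M, in a mannosidase that trims N-glycans, at 99% of 126 in SCC1 and 62% of 130 in SCC2. Ccar1 E710K, in a regulator of cycle and apoptosis, stood at 98% of 154 in SCC1 and 71% of 174 in SCC2, and Map3k5 D1346H, in the stress kinase ASK1, at 100% of 47 in SCC1 and 69% of 91 in SCC2. Bcr R1035W, Gcc2 L386F and Tmem259 R292C were the other calls, and all 7 were higher in SCC1. In quiescent cells Ptges3 stood at 99% in SCC1 and 74% in SCC2, Man1a at 100% in SCC1 and 59% in SCC2, and Ccar1 at 97% in SCC1 and 94% in SCC2. Zbtb24 W676G (32% in both) and Myl6b L91V (36% in SCC1, 46% in SCC2) did not follow the rest of the chromosome. In the authors' deposited copy number table all 13 sites lay in gains of 3 or 4 copies in both tumours.

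On chromosome 18 all 6 shared mutations were at 93% or more in SCC1, and they ranged between 23% and 70% in SCC2. The medians were 100% in SCC1 and 31.5% in SCC2. The calls were Wac T354S (100% of 62 reads in SCC1, 24% of 45 in SCC2), Phax E349D, in the nuclear export adaptor of small RNAs (100% of 70 in SCC1, 28% of 53 in SCC2, Fisher exact test, adjusted p = 7.20e-18), Lmnb1 I563F, in lamin B1 (100% of 36 in SCC1, 35% of 40 in SCC2), Rnmt T331S, in the mRNA cap methyltransferase (93% of 30 in SCC1, 23% of 22 in SCC2) and Pqlc1 H117Q (98% of 60 in SCC1, 39% of 28 in SCC2). Lars V670M, in leucyl-tRNA synthetase, with 100% of 20 reads in SCC1 and 70% of 10 in SCC2, did not pass (Fisher exact test, adjusted p = 0.118). The authors' deposited copy number table had no call at 4 of these 6 sites in SCC1 and at 5 of 6 in SCC2.

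On chromosome 9 the order was turned round. The medians of 9 shared mutations were 48% in SCC1 and 100% in SCC2, and 7 of the 9 were at 90% or more in SCC2 and 1 in SCC1. The deepest was Rpl4 R121P, in a protein of the large ribosomal subunit, at 54% of 1163 reads in SCC1 and 99% of 834 in SCC2 (Fisher exact test, adjusted p = 2.32e-138), and in quiescent cells at 54% in SCC1 and 98% in SCC2. Dpagt1 L270F, in the first enzyme of N-glycan assembly, stood at 67% of 52 in SCC1 and 100% of 41 in SCC2, and Cwf19l2 R49P at 48% of 44 in SCC1 and 100% of 19 in SCC2. Zfp266 K294M, Ttc12 L611Q and Nprl2 I224F were also called lower in SCC1, with 11 to 30 reads in each library. Pml H815L stood at 100% in both tumours, while Timm8b L12S (13% in SCC1, 12% in SCC2) and Stt3b F381V (37% in SCC1, 23% in SCC2) were low in both. The chromosome also held 11 mutations private to SCC1 and 4 private to SCC2. Among the private ones of SCC1 were Smarca4 R351Q and Keap1 H96L, in the sensor that restrains NRF2, at 42% of 26 reads in quiescent and 24% of 17 in proliferative cells. Over sites with at least 20 reads in both libraries 4 remained, with a median difference of -16 percentage points, against -45 over all 9. Over all 9 the exact interval of the median difference was -53 to 1. It was 13 to 33 on chromosome 10 and 30 to 76 on chromosome 18.

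On the X chromosome shared mutations were near 100% in both tumours, and the medians over 4 sites were 99.5% in SCC1 and 100% in SCC2. Flna H2517P was called at 99% of 835 reads in SCC1 and 100% of 756 in SCC2 (Fisher exact test, adjusted p = 0.0450), a difference of 1 point that did not remain with the least difference that rounding allows (adjusted p = 1). Piga holds the pair that shows the spread within a gene, R485W at 100% in both tumours and Q58L at 57% of 14 reads in SCC1 and 36% of 11 in SCC2. In all, 19 shared mutations were at 90% or more in SCC1 only, 17 of them on chromosomes 10 and 18, and 9 were in SCC2 only, 6 of them on chromosome 9. In both tumours 8 were, among them Ovca2 T32A, Tymp D389N, Cmtr2 R718W and Gm20594 F6S beside those of Pml, Flna, Piga and Morc4.

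**Figure D4:**
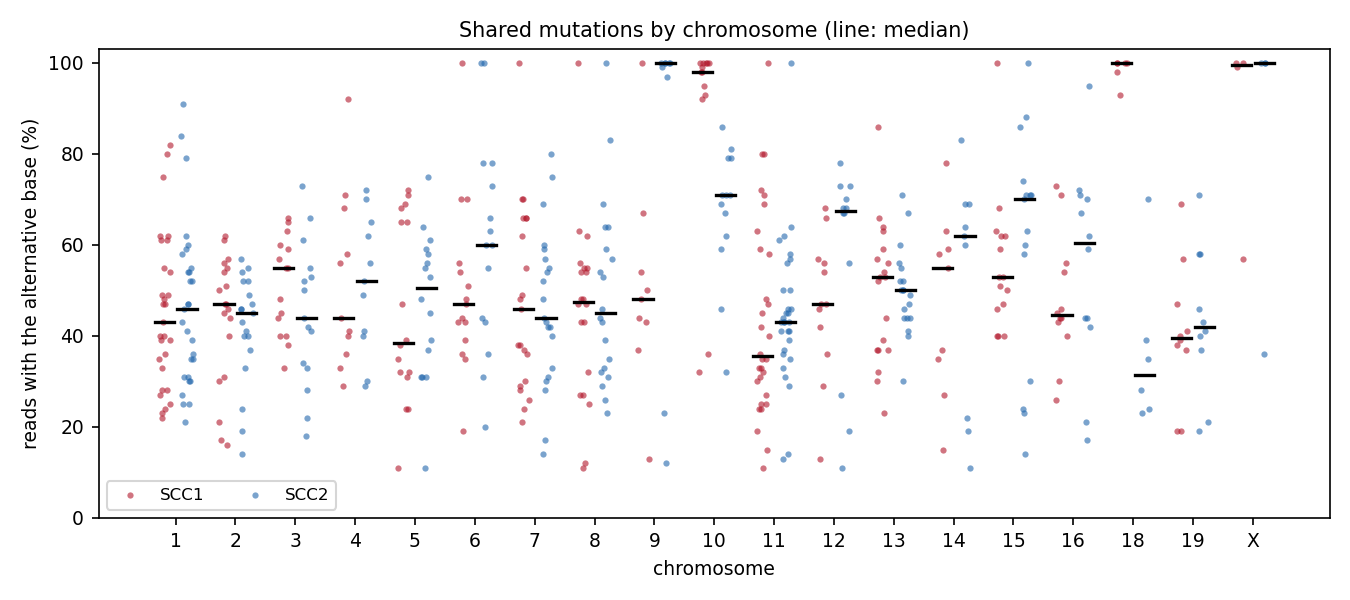
Read share in percent at shared mutations (points) by chromosome, SCC1 left and SCC2 right at each chromosome, with the median as a black line and sideways scatter for legibility. The medians were 98% in SCC1 and 71% in SCC2 on chromosome 10, 100% in SCC1 and 31.5% in SCC2 on chromosome 18, and 48% in SCC1 and 100% in SCC2 on chromosome 9.

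Outside these 3 chromosomes 37 of 257 shared mutations (14.4%) were called, 16 higher and 21 lower in SCC1. The deepest was H3f3b K19I, in the tail of histone H3.3, at 24% of 1212 reads in SCC1 and 43% of 1014 in SCC2 (Fisher exact test, adjusted p = 3.35e-19), with 20% in SCC1 and 41% in SCC2 quiescent cells. Gclm encodes the modifier subunit of the enzyme that limits glutathione synthesis, and N189I stood at 45% of 1196 reads in SCC1 and 22% of 469 in SCC2 (Fisher exact test, adjusted p = 5.39e-17). The quiescent cells of the tumours did not repeat that gap, with 42% in SCC1 and 43% in SCC2, and in SCC2 the quiescent and proliferative shares differed (Fisher exact test, adjusted p = 0.0395). Srm Q206L, in spermidine synthase, stood at 29% of 246 reads in SCC1 and 70% of 82 in SCC2 (Fisher exact test, adjusted p = 3.79e-09). Dbf4 L238M, in the activator of the replication kinase Cdc7, stood at 69% of 113 in SCC1 and 31% of 109 in SCC2, and Twist1 S169G, in a transcription factor of mesenchymal fate, at 47% of 139 in SCC1 and 73% of 121 in SCC2. S100a10 G78W, in an annexin A2 partner, was as deep as Gclm and was not called, at 57% of 1122 reads in SCC1 and 61% of 1055 in SCC2 (Fisher exact test, adjusted p = 0.195). H3f3b, Rpl4 and other histone and ribosomal protein genes have copies elsewhere in the genome, and reads shared with those copies make their values uncertain.

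**Figure D5:**
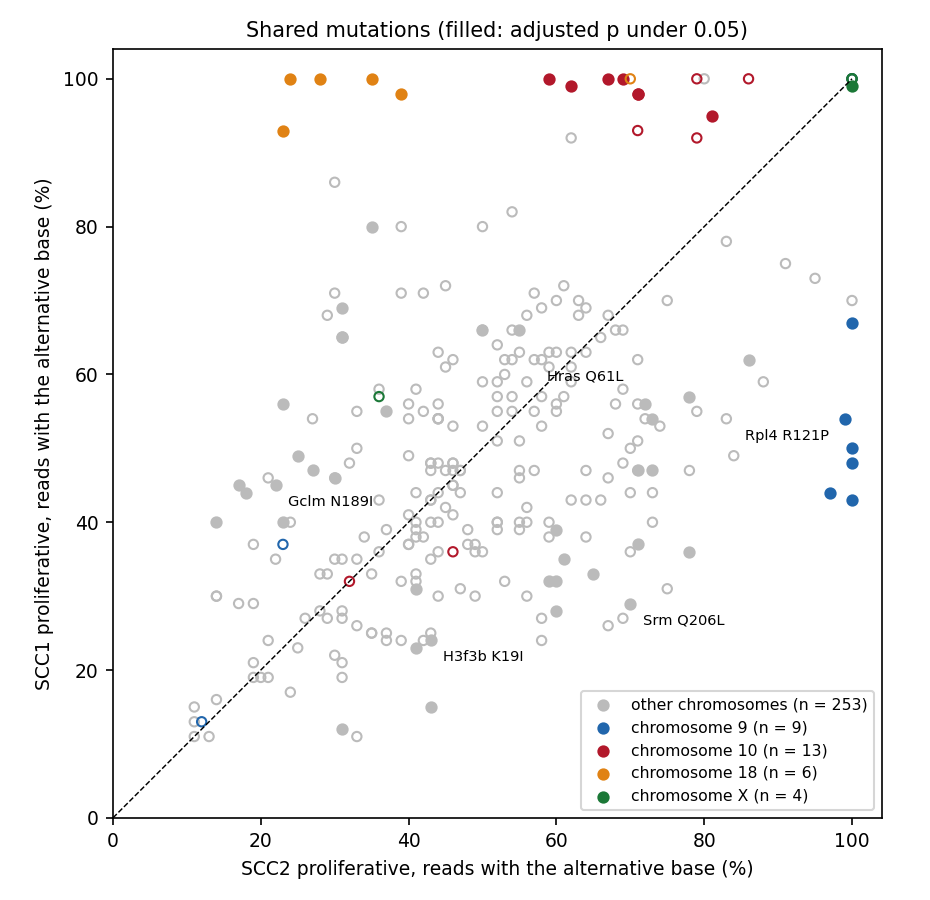
Read share in percent at 285 shared mutations, SCC1 on the vertical and SCC2 on the horizontal axis, coloured by chromosome, with filled points where the Fisher exact test gave an adjusted p under 0.05 and the dashed line at equality. Mutations of chromosomes 10 and 18 lie along the top edge, at 92% or more in SCC1 but for 2 of chromosome 10, and 6 called mutations of chromosome 9 lie along the right edge.

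Keratinocyte structural genes carried shared mutations, and most of the calls among them depended on the rounding of the percents. Of 73 listed genes of epidermal adhesion and differentiation 13 were mutated, with 8 shared mutations of which 4 were called, against 19.3% of all shared mutations. Keratins 5 and 14 pair into the filaments of basal keratinocytes. Krt14 M14L stood at 31% of 722 reads in SCC1 and 41% of 277 in SCC2 (Fisher exact test, adjusted p = 0.0205), and Krt5 Y57C at 47% of 124 in SCC1 and 71% of 45 in SCC2 (Fisher exact test, adjusted p = 0.0354). In SCC1 quiescent cells Krt14 M14L stood at 22% of 737 reads (Fisher exact test of quiescent against proliferative, adjusted p = 0.0127). For Krt14 M14L, quiescent minus proliferative was -9 percentage points in SCC1, and SCC1 minus SCC2 was -10. With the least difference that rounding allows, the adjusted p was 0.0529 for Krt14, 0.0528 for Krt5 and 1 for Flna H2517P, so 1 of the 8 shared mutations of this list was called then, that of Dst, beside 44 of all 285. Dst E2567V, in a linker of keratin to hemidesmosomes, stood at 49% of 271 in SCC1 and 25% of 143 in SCC2 (Fisher exact test, adjusted p = 4.24e-05), and Flna H2517P was the fourth call. Krt15 S433C, in a keratin of basal and hair follicle stem cells, had near shares, 47% in SCC1 and 45% in SCC2, from 57 reads in SCC1 and 610 in SCC2. That was the lowest ratio of reads of SCC1 over SCC2 at any shared site, 0.0934, beside a median ratio of 1.33. In SCC1 quiescent cells Krt15 S433C stood at 20% of 164 reads (Fisher exact test of quiescent against proliferative, adjusted p = 0.0127). Krt18 P23L, in a simple-epithelium keratin outside the list, stood at 46% of 223 in SCC1 and 30% of 399 in SCC2 (Fisher exact test, adjusted p = 0.00102). Pkp3 Q494P, in plakophilin 3 of desmosomes, stood at 66% of 149 reads in SCC1 and 54% of 152 in SCC2, and Actn1 I110F, in actinin, at 36% of 14 in SCC1 and 70% of 10 in SCC2, and neither was called. Among those private to SCC1 were Dsp T699M, Flna Q2333R, Krt16 C42Y (13% of 55 reads) and Fermt1 C522Y, in kindlin-1 (90% of 10). Private to SCC2 were P285H (14% of 161) and G277R (20% of 55) in Ivl, which encodes involucrin, and P285H was listed in SCC1 quiescent cells as well.

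The counts of mutated genes in the other lists stand without a background, because the number of genes read deeply enough to be listed is not known. Of 40 listed squamous carcinoma genes 6 were mutated, the 4 above, Ep300 and Keap1, with 5 shared mutations and 0 called. Over all 285 shared mutations 19.3% were called. With so few shared mutations per list, the counts of calls are not read as particular to these lists. Of 47 Ras, MAPK and PI3K genes 3 were mutated, Hras in both tumours, and in SCC1 only Pik3r1 D194E, in the regulatory subunit of PI3K (82% of 11 reads), and the receptor gene Met, Y41C (40% of 10). Of 39 p53, cell cycle and apoptosis genes 9 were mutated, 6 of them with shared mutations. Of their 7 shared mutations 1 was called, Cenpe K416N, in a kinetochore motor, at 44% of 108 reads in SCC1 and 18% of 113 in SCC2 (Fisher exact test, adjusted p = 0.000318). Cenpf Q559P stood at 61% of 46 in SCC1 and 59% of 73 in SCC2, Cdc27 G283W at 71% of 28 in SCC1 and 57% of 49 in SCC2, and the apoptosis gene Bid, M142I, at 47% of 34 in SCC1 and 78% of 18 in SCC2. Bub1b A933D, Kif20b I358K (16% of 69) and Mki67 M1465fs (21% of 14) were listed in SCC2 only.

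Of 64 chromatin regulators 6 were mutated. Crebbp, Chd4 and Chd3 had shared mutations, with Chd3 E127A at 33% of 168 reads in SCC1 and 41% of 102 in SCC2. Smarca4 was mutated in SCC1, Kdm6b (C1476G) in SCC1 quiescent cells (12% of 74 reads) and SCC2 proliferative cells (13% of 83 reads), and Ep300 in both by different changes. Of 38 DNA repair genes 3 were mutated, with Rif1 L757F shared (30% of 30 in SCC1, 49% of 33 in SCC2) and Rev3l H338L (90% of 10) and Uvrag K504N (73% of 11) in SCC1 only. None of 32 genes of TGF-beta and Smad signalling and none of 30 markers of fibroblasts, immune cells and endothelium had a listed mutation in these libraries. Genes that were not read could not be listed, and with 440 mutated genes in all these counts of 0 are not read as particular to those lists. They hold for the listed genes and not for a whole pathway. Pmepa1 (D146N), Fst (I156N) and Id2 (N56Y), for example, carried shared mutations and stood in none of the 8 lists. Tfrc, which encodes the CD71 protein used for the sort, carried the shared change S455C, at 73% of 11 reads in SCC1 and 95% of 21 in SCC2 (Fisher exact test, adjusted p = 0.278).

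Of the genes with a mutation, 59 were among the 1609 in the authors' deposited table of log2 ratios of quiescent over proliferative cells. Of these, as listed in the authors' deposited table, 40 were lower and 13 higher in quiescent cells of both tumours, beside 841 lower and 576 higher of all 1609. A mutation can be listed only where the gene is read in a library, so the 59 are not a random part of that table.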

How the data were processed

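RNA of sorted proliferative and quiescent cells of 2 tumours was sequenced, with 1 library each. Per the submitters' processing notes, TopHat2 2.0.9, Cufflinks 2.2.0, Cuffdiff 2.2.0 and mm10 were used. For the mutation caller, its filters and its treatment of duplicate reads, nothing is stated in the sources used here. Per site, the deposited mutation table gives a count of reads and, rounded to a whole percent, the share that carried the alternative base, with gene, effect and protein change as the authors annotated them. Copies per region are whole numbers in the authors' copy number table, and the authors' ratio table gives log2 ratios, and no scaling was redone. Of 757 entries under 50 reads, 729 had a percent that a whole number of reads gives.

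Chromosomes 17 and Y were left out, with 127 entries of the proliferative libraries. Alternative reads were computed as the rounded product of percent and reads. Shares have exact (Clopper-Pearson) 95% binomial intervals, which cover counting error only, since PCR reads without molecular identifiers are not independent molecules. Medians have exact order-statistic intervals over mutations. Shared mutations were tested with Fisher's exact test, with Benjamini-Hochberg adjustment over 285 sites, a step that was tested on simulated data. No outcome of that simulation is given here, so nothing is concluded from it about false calls in these reads. The tools were scipy 1.17.1, pandas 2.3.3, numpy 2.4.6 and matplotlib 3.10.9 under Python 3.11.15. As a check of the build, all 494 mutations whose gene matched by name lay inside it in GRCm38.p6.

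The mutations, the 8 gene lists and the chromosomes were chosen with earlier results of these data known. Genes were named by a rule: the 4 marker genes, the shared mutations with the highest lower share, genes with different changes in the tumours, mutated list members, and per tumour the private mutations of highest share at 50 reads or more, the deepest sites, genes with 3 or more mutations and stop or start changes. Called sites outside the rule were named after their values were seen. Alternatives were minimum reads of 20 or 50, a minimum share of 20%, matching by position, 1 mutation per gene or per 10 bases, private mutations alone, leaving out chromosome X, and rounding of the percents.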

Additional observations from a re-analysis of the deposited data

How the results depend on the processing

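The shared part of each list stayed inside its interval when matched by position, with at least 20 reads, with a share of at least 20%, with 1 mutation per 10 bases, or when either library of the other tumour counted. With at least 50 reads 83.2% of the SCC2 list was shared. Counting 1 mutation per 10 bases, the chromosome medians at 20 reads and the test without percents that no whole number of reads gives were added after seeing the data. Private mutations alone gave other shares than the whole lists: A:T to T:A 33.1% in SCC1 and 32.8% in SCC2, C:G to T:A 20.3% in SCC1 and 17.2% in SCC2, A:T to C:G 13.6% in SCC1 and 18.8% in SCC2, missense 84.4% in SCC1 and 83.1% in SCC2, frameshift 10.4% in SCC1 and 14.3% in SCC2, stop gain 1.30% in SCC2, and medians of 31% in SCC1 and 30% in SCC2. That follows from the setting, which leaves out the shared mutations. The counts of called mutations stayed within 1.5 times under all 3 alternatives. With the least difference that rounding allows, 11 single sites were no longer called: those of Gcc2, Tmem259, Krt14, H2afy, Ptcd2, Krt5, Zfp622, Cpne8, Eif3c, Csnk2a2 and Flna. No paired analysis was possible because each tumour has 1 library per population. Depth limits the rest: 82 of 285 shared sites had under 20 reads in 1 or both libraries, and 5 of these were called.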
